A study of Mus musculus with 8 samples.

Results

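The extracellular matrix around marrow stromal cells is built from collagens and from many other secreted proteins, and 42 genes for such non-collagen proteins are described here, of 52636 genes in the deposited count table. The rule is a list of gene symbols with no threshold on a measured value, drawn up with earlier results of these data known. The genes fall into 7 classes: elastic fibre proteins (12 genes), basement membrane proteins (9), small leucine-rich proteoglycans (7), lysyl oxidases (5), hyaluronan and aggregating proteoglycan genes (4), adhesive glycoproteins (3) and procollagen C-proteinase enhancers (2). PolyA RNA was sequenced in bulk from mesenchymal stem cells of mouse marrow that carry the leptin receptor (LEPR+), sorted as living cells without CD45, Ter119, CD31 and CD144. C57BL/6 mice had received 150 µg of immunoglobulin intravenously each week for 3 weeks. The 4 control libraries came from mice given HEL-Ig, a control IgG1 against hen egg lysozyme. The 4 LTβR-Ig libraries came from mice given the LTβR-Ig decoy, a soluble form of the lymphotoxin β receptor that captures its ligands. The labels used here give neither age nor sex, nor whether a library stands for 1 mouse or for several, so that p-values reflect only the spread among these libraries, which may be technical. The decoy was given to the whole animal, so cells other than the sorted ones were exposed to it as well.

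Elastic fibres consist of an elastin core on a scaffold of fibrillin microfibrils, with fibulins and microfibril-associated proteins at their surface, and lysyl oxidases crosslink elastin and collagen chains. Small leucine-rich proteoglycans bind collagen fibrils and growth factors. Basement membranes are sheets of laminin and collagen IV joined by nidogens and heparan sulfate proteoglycans. LEPR+ cells lie along marrow sinusoids and arterioles and are a main source of matrix in the marrow.

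The promoters of Efemp1, Nid1 and Hspg2 are shown because these are the members with non-overlapping control and LTβR-Ig values, described below, that have an entry in RefSeq's promoter table (GRCm38.p6). Each is printed 5′ to 3′ up to the base before the gene's start in GENCODE M21. The capitals mark GGGCGG, the GC box bound by Sp1-type factors, or its reverse complement.
Efemp1, chr11:28852955-28853203, + strand: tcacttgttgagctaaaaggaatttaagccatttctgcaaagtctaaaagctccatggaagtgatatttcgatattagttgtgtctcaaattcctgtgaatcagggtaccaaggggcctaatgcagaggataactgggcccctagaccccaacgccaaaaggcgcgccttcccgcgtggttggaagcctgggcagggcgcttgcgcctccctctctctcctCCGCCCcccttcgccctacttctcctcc
Nid1, chr13:13437352-13437550, + strand: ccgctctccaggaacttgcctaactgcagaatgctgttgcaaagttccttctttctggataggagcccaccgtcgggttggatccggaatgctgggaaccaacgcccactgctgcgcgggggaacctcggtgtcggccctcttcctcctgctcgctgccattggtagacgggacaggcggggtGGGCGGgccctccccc
Hspg2, chr4:137468553-137468768, + strand: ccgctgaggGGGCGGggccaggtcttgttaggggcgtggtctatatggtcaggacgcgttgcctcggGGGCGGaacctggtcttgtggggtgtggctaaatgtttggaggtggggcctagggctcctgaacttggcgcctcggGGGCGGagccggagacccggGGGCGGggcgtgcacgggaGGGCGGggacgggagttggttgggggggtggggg
Over the 250 bases before the RefSeq start, both strands, GGGCGG matched 1 time in Efemp1, 1 time in Nid1 and 5 times in Hspg2, and 32.7% of all 32851 promoters of that length hold it. None of the 3 windows held a match to the κB consensus (found in 7.25% of all promoters), to the SMAD-binding letters CAGAC (42.2%) or to the TATA box letters TATAAA (12.4%). Of the 26 members with an entry, 17 held GGGCGG, 13 CAGAC, 3 TATAAA and 4 the κB consensus in at least 1 of their entries. These members had 32 entries, and the shares above are per entry, so these counts per gene are not directly comparable with them. The κB consensus was in entries of Acan, Fbln1, Loxl4 and Mfap2. These are matches of letters only.

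Total counts lay between 52378101 and 64403177 per library, and the 42 genes took between 1.35 and 1.68% of them. All 12 fixed markers of LEPR+ stroma were detected, with Lepr at 4305 CPM (the usual depth-scaled counts, with library sizes adjusted by TMM) and Cxcl12 at 16380 CPM in control libraries on average. Summed over these 12 markers the level was 31990 to 40210 CPM in control and 35050 to 44500 CPM in LTβR-Ig libraries, a sum of which Cxcl12 is the largest part. Their median log2 fold change was 0.00. Of the 12, 2 were lower at an unadjusted edgeR p under 0.05, where 2.93% of all genes tested were. In both the groups did not overlap, which with lower values held for 2.53% of all genes tested. These were Kitl, which encodes stem cell factor, at -0.58 (edgeR adjusted p = 0.125) and the receptor gene Pdgfra at -0.29 (edgeR adjusted p = 0.649). In RNA from sorted pools, fewer cells of a type and less RNA per cell cannot be told apart. Of the 42 genes, 36 passed the filter on low counts and were tested.

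Levels between genes were compared as CPM per kilobase of exon. The leucine-rich proteoglycans were the most abundant class and took 50.5% of the summed level per kilobase of the 42 genes in control libraries. Elastic fibre genes took 26.7%, lysyl oxidases 8.58%, the procollagen enhancers 8.06%, basement membrane genes 5.63%, adhesive glycoproteins 0.572% and the hyaluronan class 0.0195%. Bgn, which encodes biglycan, stood first at 566 ± 40.7 CPM per kb, followed by Prelp at 427 ± 81.9 and Ogn, which encodes osteoglycin, at 342 ± 23.1 (SD, n = 4 each). Bgn lay above Prelp in each control library, while the control ranges of Prelp (312 to 506 CPM per kb) and Ogn (312 to 368) overlapped. Pcolce, Fbln5 and Efemp1 followed at 252 ± 25.4, 251 ± 37.4 and 243 ± 24.2 CPM per kb (SD, n = 4 each), with overlapping ranges. Lox, Dcn (decorin) and Mfap2 had 188, 139 and 128 CPM per kb, so 9 members lay above 100. At the other end 11 members lay under 1 CPM per kb in control libraries, among them Eln, the gene of elastin itself, at 0.0845, and Vcan (versican) at 0.405. Fn1, which encodes fibronectin, had 1.96 ± 1.04 CPM per kb (SD, n = 4).

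**Figure D1:**
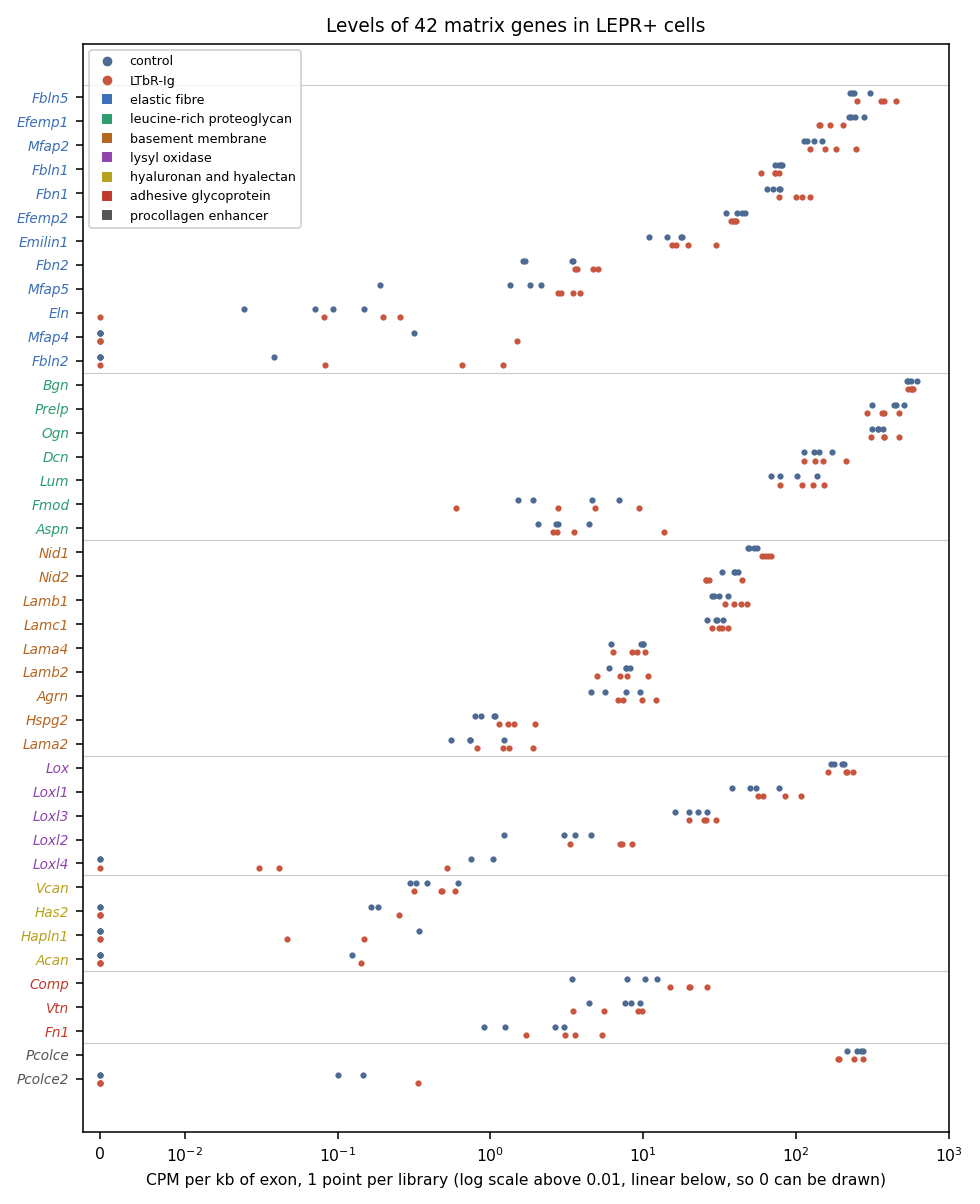
Level of each of the 42 matrix genes in CPM per kilobase of exon, 1 point per library, on a scale that is logarithmic above 0.01 and linear below so that 0 can be drawn. Control and LTβR-Ig libraries are drawn in 2 colours and gene names are coloured by class. Bgn leads at 566 CPM per kb in control libraries, and Eln, Acan, Hapln1, Has2, Mfap4, Fbln2 and Pcolce2 lie under 0.1.

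Most fitted log2 fold changes of the tested matrix genes were small and positive, and 25 of 36 had a 95% interval that includes 0. Efemp1 (fibulin-3) was the member with an interval wholly below 0. No member passed an adjusted p of 0.05 in the edgeR quasi-likelihood test, where 0.0374% of all 16045 genes tested did, and DESeq2, which called 201 genes of the table, called 2 members, Efemp1 and Comp. With an unadjusted edgeR p under 0.05, 10 of 36 tested members were higher and 1 was lower, against 3.39% and 2.93% of all genes. The 10 were Fbn1, Fbn2, Fbln2, Fbln5, Mfap2, Lamb1, Nid1, Hspg2, Loxl2 and Comp, and the lower one was Efemp1. The groups did not overlap for 5 members with higher values (Fbn2, Mfap5, Nid1, Hspg2 and Comp) and 1 with lower values (Efemp1), against 2.36% and 2.53% of all genes. The median log2 fold change was 0.30 over the 36 members and 0.00 over all genes tested, and 27 of 36 members lay above 0, against 49.7% of all genes. The genes share libraries and are not independent of one another.

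These counts moved with single libraries. The count of members higher at an unadjusted edgeR p under 0.05 was 5 without control replicate 1, against 3.43% of all genes. It was also 5 without LTβR-Ig replicate 4 (2.86% of all genes). The count of lower members was 2 without LTβR-Ig replicate 2 (2.74% of all genes). Leaving out LTβR-Ig replicate 1 gave 8 members with non-overlapping higher values, and leaving out LTβR-Ig replicate 3 gave 11, where 4.09% and 4.47% of all genes did so. Non-overlapping lower values were found for 2 members when control replicate 3, or LTβR-Ig replicate 2, was absent, against 3.83% and 3.56% of all genes. The shares of non-overlapping genes are larger than with all 8 libraries because smaller groups overlap less often. Fbn1, Lamb1, Nid1, Comp and Efemp1 stayed under an unadjusted 0.05 when any 1 library was left out. Under a stricter filter on low counts, which tested 34 of the members and left out Fbln2, 9 were higher and 1 lower. Of all genes, 4.01% and 3.39% were so there.

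**Figure D2:**
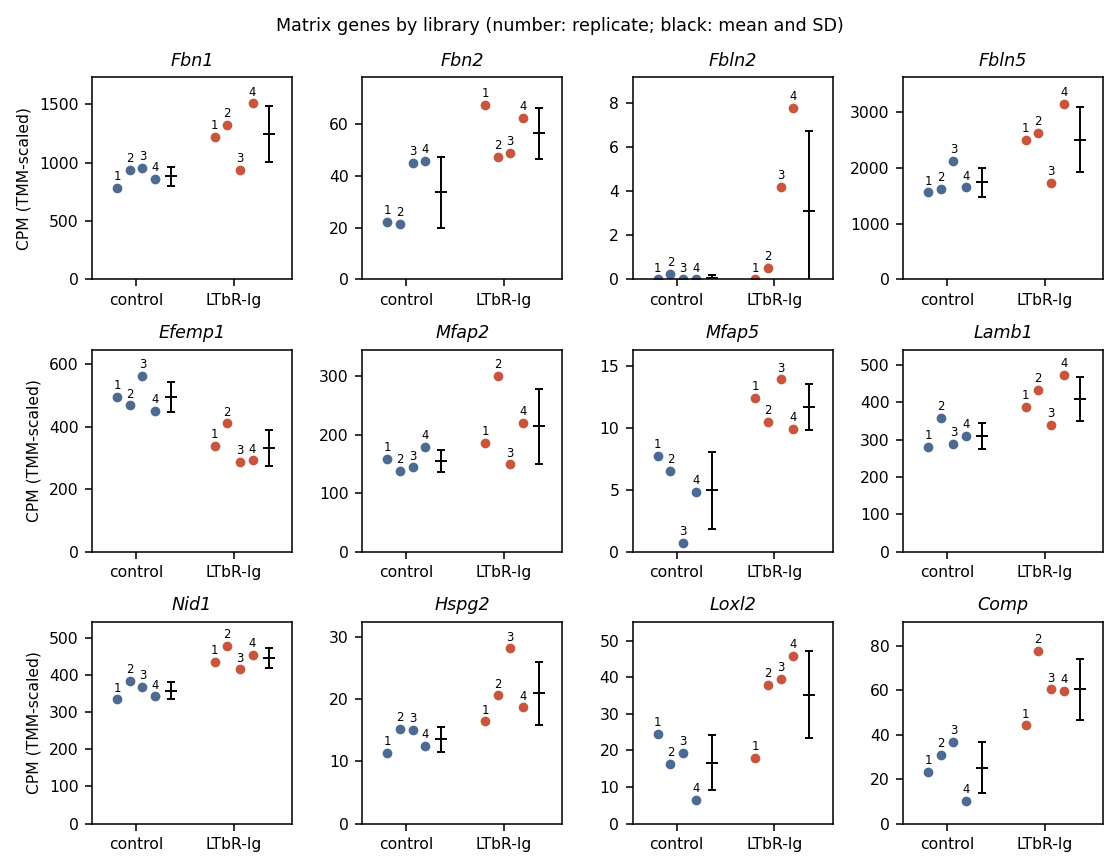
TMM-scaled CPM of the 12 members with an unadjusted edgeR p under 0.05 or with groups that did not overlap, 1 point per library with its replicate number, and the mean and SD in black; each vertical axis starts at 0. Efemp1 is lower in all LTβR-Ig libraries, at 286 to 411 against 452 to 564 CPM, while LTβR-Ig replicate 3 lies within the control range for Fbn1, Fbln5, Mfap2 and Lamb1.

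The elastic fibre class held 6 of the 11 members with an unadjusted edgeR p under 0.05. Its 11 tested members had a median log2 fold change of 0.49. By that p 5 were higher and 1 lower, against 3.39% and 2.93% of all genes. Leaving out LTβR-Ig replicate 2 gave a median of 0.26, and leaving out LTβR-Ig replicate 3 gave 0.62. The scaffold gene Fbn1, which encodes fibrillin-1 (chromosome 2, 125300594 to 125507993 in GRCm38, the build also called mm10), was at 780.5, 940.2, 957 and 858 CPM in control replicates 1 to 4 and at 1218, 1322, 937 and 1506 CPM in LTβR-Ig replicates 1 to 4. Replicates 1, 2 and 4 of LTβR-Ig lay above all controls and replicate 3 within them. The log2 fold change was 0.50 (SE 0.15, 95% interval 0.16 to 0.83, edgeR adjusted p = 0.478). Of its 12128 bases of exon, 2442 overlap Gm9913 on the opposite strand, and without a stated strand setting reads there cannot be told apart.

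Fbn2, which encodes the fibrillin-2 of developing tissue, was far lower, at 22.2, 21.6, 44.9 and 45.9 CPM in control and 67.3, 47.4, 48.8 and 62.4 CPM in LTβR-Ig libraries. The highest control values lay just under the lowest LTβR-Ig value, so the groups were apart by a small margin. The log2 fold change of Fbn2 was 0.75 (SE 0.29, edgeR adjusted p = 0.698), and its unadjusted edgeR p was 0.0697 to 0.0784 in the 4 fits that each lacked control replicate 1, control replicate 2, LTβR-Ig replicate 1 or LTβR-Ig replicate 4.

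Fbln5, which encodes fibulin-5, a protein that ties elastin to microfibrils and to cells, was the most abundant elastic fibre gene per kilobase. Its values were 1558, 1616, 2119 and 1645 CPM in control and 2501, 2620, 1727 and 3140 CPM in LTβR-Ig libraries. Control replicate 3 stood above the other controls, and LTβR-Ig replicate 3 was again the low one of its group. The log2 fold change of Fbln5 (chromosome 12, 101746565 to 101819055) was 0.53 (SE 0.18, 95% interval 0.11 to 0.94, edgeR adjusted p = 0.625). Its unadjusted edgeR p was 0.0512 when control replicate 1 was left out and 0.0531 when LTβR-Ig replicate 4 was. Mfap2, which encodes a small glycoprotein bound to fibrillin, had 159, 137, 144 and 179 CPM in control and 186, 300.1, 149 and 220.4 CPM in LTβR-Ig libraries. These groups overlapped through LTβR-Ig replicate 3, and the log2 fold change of 0.47 (SE 0.20, edgeR adjusted p = 0.786) was 0.26 without LTβR-Ig replicate 2. The unadjusted edgeR p of Mfap2 was 0.0805 to 0.144 without that library, without LTβR-Ig replicate 4 or without control replicate 1, 2 or 3.

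Efemp1, which encodes fibulin-3, a secreted relative of fibulin-5, was the member with the smallest p and the opposite direction. It was at 496.5, 469, 564 and 452 CPM in control and at 339.7, 411, 286 and 292 CPM in LTβR-Ig libraries. Every LTβR-Ig value lay below every control value. The log2 fold change of Efemp1 (chromosome 11, 28853204 to 28926743) was -0.58 (SE 0.14, 95% interval -0.88 to -0.27, edgeR adjusted p = 0.285, DESeq2 adjusted p = 0.0253), a 1.49-fold difference. Over the 16 other settings it lay between -0.69 and -0.50, with adjusted p from 0.0253 to 0.602. The other 2 fibulins measured at substantial levels, Fbln1 and Efemp2 (fibulin-4), had -0.14 (95% interval -0.38 to 0.09) and -0.09 (95% interval -0.33 to 0.16), with overlapping groups.

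The remaining elastic fibre genes were at low levels. Mfap5, which encodes a second fibrillin-binding glycoprotein, had 7.75, 6.503, 0.678 and 4.83 CPM in control and 12.4, 10.45, 13.9 and 9.88 CPM in LTβR-Ig libraries, with groups apart and control replicate 3 lowest. Its log2 fold change was 1.24 (SE 0.60, edgeR adjusted p = 0.841) and 0.88 without control replicate 3, where its unadjusted edgeR p was 0.0149. Emilin1, which encodes an elastin-associated glycoprotein, had 0.42 and Eln 0.66, both with 95% intervals that include 0. Fbln2 had 16 counts in control replicate 2 and 0 in the other controls, against 0, 28, 237 and 398 counts in LTβR-Ig replicates 1 to 4. Its fitted log2 fold change of 5.603 had a 95% interval from 0.43 to 10.78, and it passed the filter through 3 LTβR-Ig libraries and 1 control. Its unadjusted edgeR p was 0.0672 to 0.102 when control replicate 1, 3 or 4 was left out, or LTβR-Ig replicate 3 or 4, and 0.229 with limma-voom. Mfap4 was not tested, with 40 counts in 1 control library, 178 in 1 LTβR-Ig library and 0 in the others.

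The 9 basement membrane genes had a median log2 fold change of 0.32, with 7 values above 0, against 49.7% of all genes. An unadjusted edgeR p under 0.05 was found for 3 of them, all with higher values, against 3.39% of all genes. Nid1, which encodes nidogen-1, the linker between laminin and collagen IV, was the most abundant of them per kilobase. Its values were 334, 384, 368 and 343 CPM in control and 435, 478, 415 and 453.5 CPM in LTβR-Ig libraries. The groups did not overlap, and the spread within each was small. The log2 fold change of Nid1 (chromosome 13, 13437551 to 13512269) was 0.32 (SE 0.09, 95% interval 0.12 to 0.52, edgeR adjusted p = 0.433), a 1.25-fold difference, and it lay between 0.28 and 0.36 over the 16 other settings. Nid2, the paralog nidogen-2, had -0.32 (95% interval -0.76 to 0.11), and its LTβR-Ig libraries held 133 to 140.2 CPM apart from replicate 2, which held 229 CPM, against 168.5 to 216 CPM in control libraries. Without LTβR-Ig replicate 2 the groups of Nid2 did not overlap.

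Laminins are trimers of 1 α, 1 β and 1 γ chain. Among the α chains Lama4, found in vessel and stromal laminins, was at 8.95 CPM per kb in control libraries, Lama1 at 3.60, Lama2 at 0.812, Lama3 at 0.750 and Lama5 at 0.417. The β1 and γ1 genes were at 31.1 (Lamb1) and 29.9 (Lamc1) CPM per kb, above every α chain, and β2 (Lamb2) was at 7.42. Lamb1 had 281, 357, 287.5 and 309.5 CPM in control and 388, 434, 339 and 473 CPM in LTβR-Ig libraries, with LTβR-Ig replicate 3 inside the control range. Its log2 fold change was 0.40 (SE 0.13, 95% interval 0.11 to 0.70, edgeR adjusted p = 0.547). Its partner Lamc1 had 0.09 (95% interval -0.16 to 0.34), Lama4 -0.07 (95% interval -0.51 to 0.38), Lamb2 0.05 and Lama2 0.69 (95% interval -0.05 to 1.43). Whether Lamb1 and Lamc1 differed from each other in their response was not tested.

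Of the heparan sulfate proteoglycans, Hspg2 (perlecan) had 11.3, 15.2, 15.1 and 12.5 CPM in control and 16.4, 20.6, 28.1 and 18.6 CPM in LTβR-Ig libraries. All LTβR-Ig values were above the controls, with replicate 3 highest. Its log2 fold change was 0.63 (SE 0.23, edgeR adjusted p = 0.646), and without LTβR-Ig replicate 3 it was 0.46 at an unadjusted edgeR p of 0.0649 (0.0532 without control replicate 1). Agrn, which encodes agrin, had 0.41 (95% interval -0.19 to 1.01). All 10 tested endothelial markers had positive log2 fold changes, with a median of 0.68. So had all 10 megakaryocyte and platelet markers, with a median of 0.58, where 49.7% of all genes lay above 0. None of these markers had an unadjusted edgeR p under 0.05. The summed level of 11 endothelial markers was 42.1 to 153 CPM in control and 28.6 to 308 CPM in LTβR-Ig libraries, with the highest value in LTβR-Ig replicate 3. That library was the highest of its group for Hspg2 and Agrn and the lowest for Lama4, Lamb1, Lamc1 and Nid1. None of the 11 endothelial markers was at 0 throughout. Cdh5, the gene of the CD144 antigen gated against, was at 8.49 and 8.90 CPM on average in the 2 groups. The summed level of 10 megakaryocyte and platelet markers was 589 to 2537 CPM in control and 879 to 3552 CPM in LTβR-Ig libraries, also highest in LTβR-Ig replicate 3 and with none at 0. The part of these cells in the matrix values was not tested.

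Lysyl oxidases open the crosslinking of collagen and elastin. Their 4 tested members all had positive log2 fold changes, with a median of 0.37, where 49.7% of all genes lay above 0. Of the 4, 1 was higher at an unadjusted edgeR p under 0.05, against 3.39% of all genes. Lox, the most abundant, had 984, 814, 955 and 845 CPM in control and 1023, 1129, 778 and 1017 CPM in LTβR-Ig libraries. Values of LTβR-Ig replicates 1, 2 and 4 were above the controls and replicate 3 was below them, and the log2 fold change was 0.13 (95% interval -0.15 to 0.42). Without LTβR-Ig replicate 3 it was 0.24 at an unadjusted edgeR p of 0.0461. Loxl2 had 24.5, 16.3, 19.3 and 6.585 CPM in control and 18.0, 37.9, 39.5 and 45.8 CPM in LTβR-Ig libraries, where replicate 1 lay among the controls. Its log2 fold change was 1.08 (SE 0.42, 95% interval 0.14 to 2.03, edgeR adjusted p = 0.687), and its unadjusted edgeR p was 0.0588 to 0.0783 when control replicate 2 was left out, or 1 of LTβR-Ig replicates 2, 3 and 4. Loxl1, the family member tied to elastic fibre upkeep, had 0.49 (95% interval -0.10 to 1.09) and Loxl3 0.24 (95% interval -0.16 to 0.64). Loxl4 was not tested, with 285 and 177 counts in control replicates 2 and 3, 125 in LTβR-Ig replicate 3 and under 10 in each other library.

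**Figure D3:**
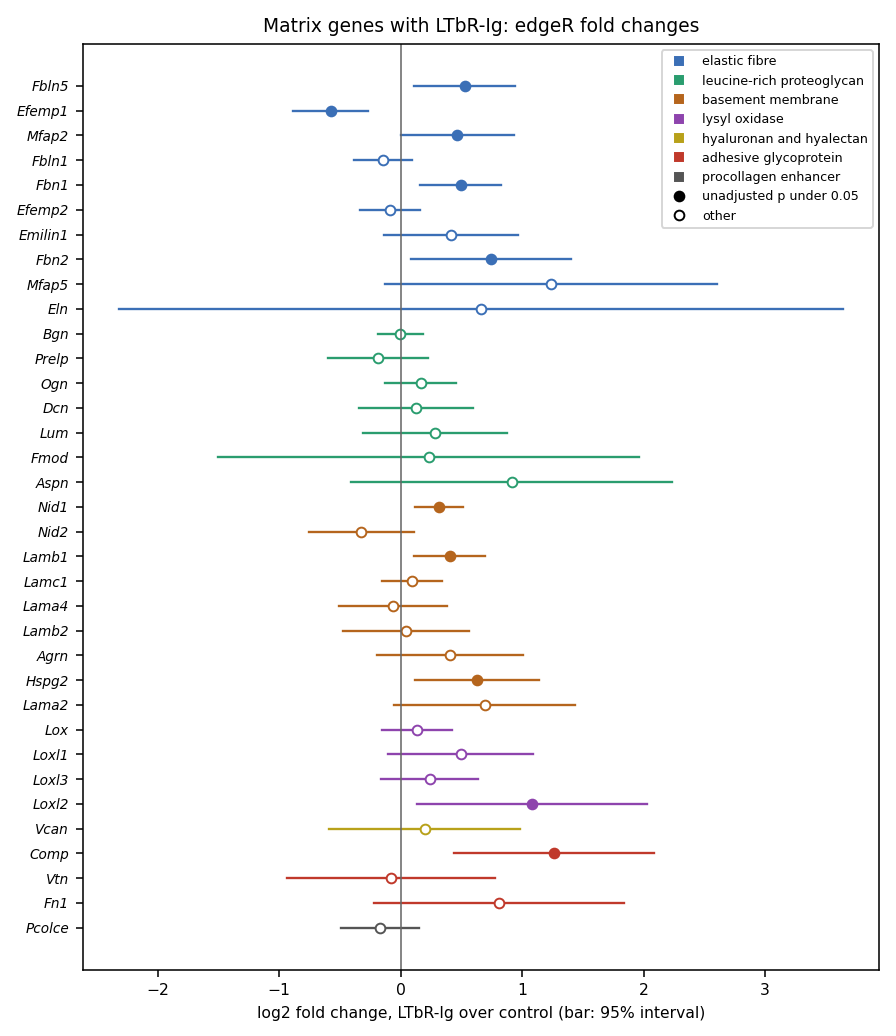
Log2 fold change of 35 tested members, LTβR-Ig over control, with 95% intervals from the edgeR fit; filled points had an unadjusted p under 0.05, and members are ordered by class and level. Fbln2, with an interval from 0.43 to 10.78, is not drawn. Efemp1 is the filled point on the lower side, and the leucine-rich proteoglycans have no filled point.

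The small leucine-rich proteoglycans, the most abundant class, had no member with an unadjusted edgeR p under 0.05 among 7 tested. Bgn, which encodes the fibril-binding proteoglycan biglycan, was at 3470.0, 3798, 3283 and 3261 CPM in control and at 3571, 3508, 3273 and 3452 CPM in LTβR-Ig libraries. The groups overlapped fully, and the log2 fold change of 0.00 had a 95% interval of -0.18 to 0.18, which bounds any difference at this spread. Ogn had 0.17 (95% interval -0.13 to 0.46), Dcn 0.13 (95% interval -0.34 to 0.59), Lum, which encodes lumican, 0.28 (95% interval -0.31 to 0.87) and Prelp -0.18 (95% interval -0.59 to 0.23). Aspn (asporin) was at 32.2 CPM in LTβR-Ig replicate 4 and at 4.845 to 10.45 CPM in the other 7 libraries, and Fmod (fibromodulin) ranged from 5.03 to 22.9 CPM in control and from 1.98 to 31.1 CPM in LTβR-Ig libraries. The class median of 0.17 was 0.00 without LTβR-Ig replicate 4.

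Among the adhesive glycoproteins, Comp, which encodes cartilage oligomeric matrix protein, a pentamer that binds collagen fibrils, stood apart between the groups. It was at 23.1, 30.7, 36.8 and 10.15 CPM in control and at 44.15, 77.6, 60.3 and 59.5 CPM in LTβR-Ig libraries, all of the latter above all controls. The log2 fold change of Comp (chromosome 8, 70373558 to 70382066) was 1.26 (SE 0.36, 95% interval 0.44 to 2.09, edgeR adjusted p = 0.460, DESeq2 adjusted p = 0.0387), a 2.40-fold difference, and it lay between 1.00 and 1.51 over the 16 other settings, with adjusted p from 0.0387 to 0.799. The summed level of 11 chondrocyte markers, Comp not among them, was 31.1 to 164 CPM in control and 53.5 to 220.2 CPM in LTβR-Ig libraries, and none was at 0 throughout. That sum was 54.6, 98.9, 220.2 and 53.5 CPM in LTβR-Ig replicates 1 to 4, with replicate 3 above the control range. Its largest part was Col2a1, at 49.9 CPM in control libraries on average. The summed level of 12 fibroblast and tendon markers was 85.2 to 132 CPM in control and 52.3 to 89.5 CPM in LTβR-Ig libraries, with overlapping groups and with the tendon factor Scx and Cilp2 at 0 in all libraries. Most of that sum was Scara5, whose means were 80.3 CPM for the controls and 51.7 CPM with LTβR-Ig. The tendon marker Tnmd, which encodes tenomodulin, went the other way, with no count in any control library. It had 0.589 ± 0.307 CPM (SD, n = 4) in LTβR-Ig libraries, each of which had some of its 129 counts. Tnmd passed the filter on low counts through the LTβR-Ig libraries alone, so its groups being apart is not read as a result. Dpp4, another of these 12 markers, was lower with LTβR-Ig, and its groups did not overlap either, as for 2.53% of all genes with lower values. Its means were 4.86 ± 3.34 CPM for the controls and 0.905 ± 0.778 CPM with LTβR-Ig (SD, n = 4 each). The log2 fold change of Dpp4 was -2.42, with a 95% interval of -5.155 to 0.314. The part of such cells in the Comp values was not tested. Fn1 had 14.5, 10.7, 30.8 and 35.6 CPM in control and 19.9, 36.04, 41.9 and 62.4 CPM in LTβR-Ig libraries, a log2 fold change of 0.81 (95% interval -0.22 to 1.84) with overlapping groups. Vtn, which encodes vitronectin, had -0.08 (95% interval -0.93 to 0.78).

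The procollagen C-proteinase enhancer gene Pcolce, whose product speeds the removal of collagen propeptides, was at 963, 1012, 827 and 1050.0 CPM in control and at 919, 1046, 720.5 and 733 CPM in LTβR-Ig libraries. Its groups overlapped, and the log2 fold change was -0.17 (95% interval -0.49 to 0.15). The paralog Pcolce2 had counts in 3 libraries (26 and 40 in control replicates 3 and 4 and 88 in LTβR-Ig replicate 3) and was not tested. Of the genes for the hyaluronan coat only Vcan was tested. It had 4.70, 8.91, 5.53 and 4.28 CPM in control and 4.59, 6.83, 8.45 and 7.02 CPM in LTβR-Ig libraries, a log2 fold change of 0.20 (95% interval -0.59 to 0.99). Has2, the hyaluronan synthase gene, had 49 and 46 counts in control replicates 1 and 2, 57 in LTβR-Ig replicate 2 and 0 elsewhere. The cartilage proteoglycan gene Acan (52 and 60 counts) and the link protein gene Hapln1 (113 and 50) had their main counts in control replicate 3 and LTβR-Ig replicate 3, with 17 more of Hapln1 in LTβR-Ig replicate 1. With counts in so few libraries, no difference was assessed for Has2, Acan and Hapln1.

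The LTβR-Ig libraries differed in how many members lay above the controls. LTβR-Ig replicates 2 and 4 lay above all 4 controls for 21 of 36 members each, and replicates 1 and 3 for 13 and 12. Counts by library were not made over all genes, so whether they are particular to the matrix genes was not tested. Each control lay above the other 3 controls for 7 to 11 members, a range set by fewer libraries. The lowest value of the LTβR-Ig group fell in replicate 3 for 15 members, among them Fbn1, Fbln5, Mfap2, Lamb1 and Lox, in replicate 1 for 13, in replicate 4 for 6 and in replicate 2 for 2. Summed over the class, elastic fibre genes were at 4868, 5352 and 5780.0 CPM in LTβR-Ig replicates 1, 2 and 4 and at 3670.0 CPM in replicate 3, against 3607 to 4364 CPM in control libraries. The summed level of 10 osteoblast markers was 11930 to 25860 CPM in control and 13030 to 21610 CPM in LTβR-Ig libraries, overlapping and with none at 0, and most of it was Ibsp, at 11890.0 CPM in control libraries on average and a log2 fold change of -0.07. Of the 10, 9 had positive log2 fold changes, against 49.7% of all genes, with a median of 0.44, above that of the matrix genes. An unadjusted edgeR p under 0.05 was found for 3, all higher, against 3.39% of all genes. These were Alpl, which encodes tissue-nonspecific alkaline phosphatase, at 0.95, the osteoblast factor Sp7 at 0.95 and Phex at 0.34. Of them Alpl alone had groups apart, as did 2.36% of all genes with higher values. The part of osteoblast lineage cells in the matrix values was not tested.

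**Figure D4:**
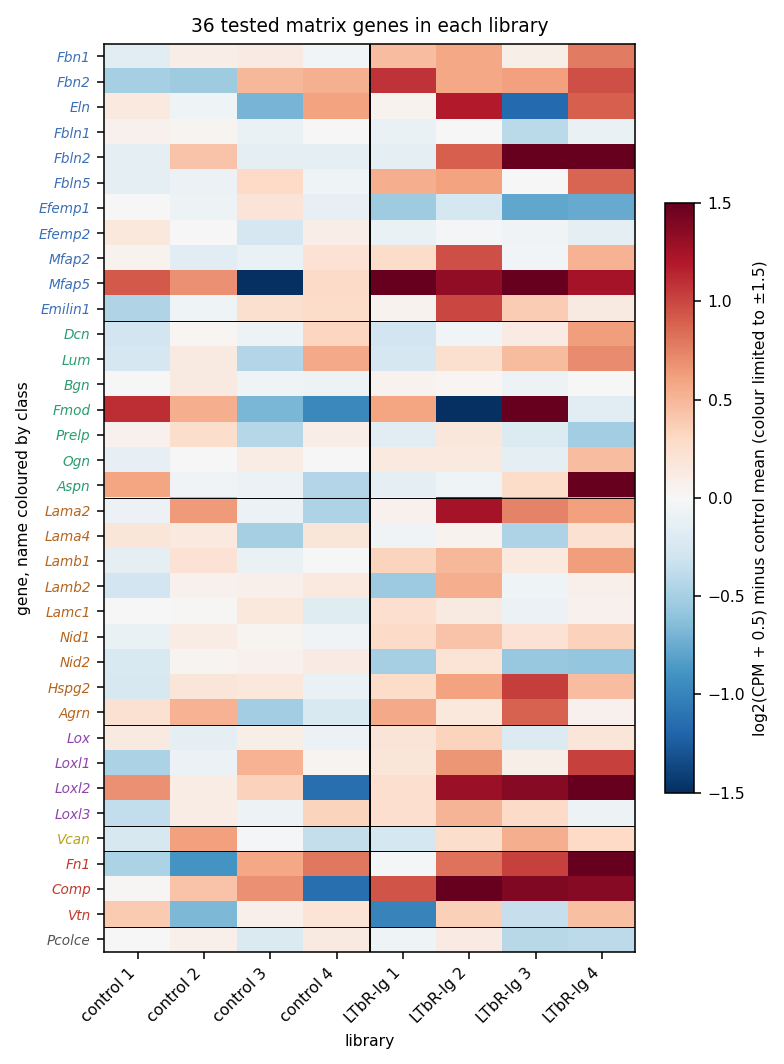
Each tested member in each library as log2(CPM + 0.5) minus the mean of the control libraries, with colours limited to ±1.5, rows ordered by class and a line between the groups. Efemp1 is below the control mean in all LTβR-Ig libraries and Nid1 and Comp above it, while Fbn1 and Fbln5 are close to it in LTβR-Ig replicate 3.

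Another 100 genes of the same matrix systems, none of them members, were counted beside them, of which 81 were tested. Their median log2 fold change was 0.24, and an unadjusted edgeR p under 0.05 was reached by 11 with higher and 2 with lower values (3.39% and 2.93% of all genes), with none past the adjusted threshold. Matrix receptors had 4 higher and 1 lower of 18 tested. These were Itga9, an integrin chain that binds tenascin-C and fibronectin, at 0.93 (edgeR adjusted p = 0.084), the common β1 integrin Itgb1 at 0.30, the syndecans Sdc3 at 0.78 and Sdc4 at 0.57, and the laminin receptor dystroglycan, Dag1, at -0.45. In fibre processing and crosslinking 3 of 10 were higher: Bmp1, the procollagen C-proteinase whose action Pcolce enhances, at 0.38, the transglutaminase Tgm2 at 0.69 and the fibrillin-binding Adamtsl4 at 0.77. Among 8 other laminin or basement membrane genes Lama1 had 0.60 and Npnt, which encodes nephronectin, 0.90, both higher at an unadjusted p under 0.05. Of 24 glycosaminoglycan chain enzymes, the chondroitin synthase gene Chsy3 (1.58) and the dermatan sulfate epimerase gene Dse (0.27) were higher. Of 5 other leucine-rich proteoglycans Ecm2 was lower at -0.55, and of 10 microfibril partners, Ltbp1 to Ltbp4 among them, and 6 hyaluronan genes none had an unadjusted edgeR p under 0.05.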

How the data were processed

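Counts are as the authors deposited them, unnormalized, in 1 table of 52636 genes by 8 libraries. HISAT2, HTSeq and the mm10 build are listed per the submitters' processing notes; no version, annotation release or strand setting is stated in the labels used. Groups and replicate numbers came from the titles. Symbols, positions and exon lengths came from GENCODE M21 (GRCm38), where 52489 IDs matched a symbol. Exons of 16 of the 42 members overlap another gene.

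The counts were tested with edgeR 4.0.16 in R 4.3.3: TMM scaling, a low-count filter (filterByExpr with the groups, at least 10 counts and a total of 15), robust glmQLFit with group as the single term over 8 libraries, and Benjamini-Hochberg adjustment over 16045 genes. Total counts were 52378101 to 64403177 per library. CPM are TMM-scaled, and standard errors were derived from the F statistic. The fit was first tested on simulated data. Counts of no pair of replicates were alike within sampling noise (chi-square per degree of freedom 139.8 to 264.7).

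Members and lists were chosen with earlier results of these data known. Library values are given for every member with an unadjusted p under 0.05 or groups that do not overlap and for the most abundant member per kilobase of each class; others get levels or fold changes, and partner genes with an unadjusted p under 0.05 are named. The alternatives were edgeR with upper-quartile or DESeq2 scaling, DESeq2 1.42.0 on the same genes, limma-voom (limma 3.58.1) with sample weights, no filter, a filter of at least 10 counts in 4 libraries with a mean of 5 CPM, a replicate block, and leaving out each library. Leaving out control replicate 3 together with LTβR-Ig replicate 2 was added after seeing the data.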

Additional observations from a re-analysis of the deposited data

Results flagged for a closer look

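In each group of 4 libraries, a member or class sum was examined for 1 library whose gap to its nearest neighbour took most of the range. For normally distributed values chance alone yields this in about 1 in 20 groups, and 5 of 86 gene or class and group pairs met it. The class sums are made of the same members, so the pairs are not independent. In control replicate 3, Fbln5 reached 2119 CPM where the remaining controls held 1558 to 1645 CPM, and Lama4 had only 74.7 CPM where they held 117 to 120.2 CPM. Nid2 reached 229 CPM in LTβR-Ig replicate 2, with 133 to 140.2 CPM elsewhere in its group. Aspn reached 32.2 CPM in LTβR-Ig replicate 4, with 6.06 to 8.27 CPM elsewhere in its group. Fbln2 was detected in control replicate 2, at 0.244 CPM, and had 0 counts in every other control, a pattern that meets the rule at any level.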

How the results depend on the processing

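Counts and class medians under the alternatives cover the 36 members tested with all libraries, 34 under the stricter filter, or all 42 for the counts with no filter. No member passed the adjusted threshold under 15 of 16 alternatives, and 2 did with the DESeq2 Wald test. Without single libraries, 5 to 11 members were higher at an unadjusted edgeR p under 0.05 (2.74 to 3.99% of all genes). Those lower were 1 to 2 (2.48 to 3.37% of all genes). Members with non-overlapping higher values were 5 to 11 and with lower values 1 to 2 (3.56 to 4.47% and 3.56 to 4.32% of all genes). Leaving out each library moved the median log2 fold change of all members between 0.23 and 0.38, that of the elastic fibre class between 0.26 and 0.62, and that of the leucine-rich proteoglycans between -0.0016 and 0.19. The added setting lacks control replicate 3 together with LTβR-Ig replicate 2. There Fbn1, Fbn2, Fbln5, Mfap5, Nid1, Hspg2 and Comp were higher at an unadjusted edgeR p under 0.05 (2.86% of all genes). By the same rule 4 members were lower (2.41% of all genes). Non-overlapping higher values were found for 8 members and lower ones for 6 (5.92% and 5.84% of all genes). The medians in this setting were 0.22 over all members, 0.25 for the elastic fibre class and -0.35 for the procollagen enhancer Pcolce. The cause of these shifts was not tested. Over the 16 alternatives the medians of the other classes stayed above 0, at 0.24 to 0.36 for basement membrane, 0.27 to 0.46 for lysyl oxidase, 0.08 to 0.48 for Vcan and 0.51 to 1.04 for adhesive genes. Upper-quartile and DESeq2 scaling in edgeR put the median of all genes at -0.0025 and -0.0023, against -0.0021. Bgn changed sign in 5 alternatives, between -0.03 and 0.05.

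With a replicate block in the fit, 8 members were higher and 1 lower by the unadjusted p (3.66% and 2.91% of all genes); Fbln2, Fbln5, Mfap2 and Loxl2 no longer had a p under 0.05, at 0.0854, 0.0573, 0.0757 and 0.0796, and Lama2 and Fn1 now did. Past the adjusted threshold was 1 gene of the table, against 6. Same-numbered libraries had correlations of their deviations of 0.10, 0.05, 0.08 and 0.00, and control replicate 2 correlated more with LTβR-Ig replicate 1 (0.13). The series' design text speaks of 4 pairs without saying what a pair shares, so the numbers were not taken to pair the samples. The 6 untested members reached the filter's count level in too few libraries. Loxl4, with a total of 604 counts, was among them, while Eln was tested with 400.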
